A study of Mus musculus with 8 samples.

Results

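The genes of respiratory complexes II to V were followed through 4 groups of mouse right hippocampi. The members are all probes with values whose only gene symbol in the probe annotation begins with Sdh, Uqcr, Cox4, Cox5, Cox6, Cox7, Cox8 or Atp5, or is Cyc1 or Cycs. The probe with the highest mean over the 8 arrays stood for each gene, which gave 34 genes of the 11023 measured. Complex II held 4 of them, complex III 7, complex IV 12 and complex V 11. No probe annotated as Cycs, the gene of somatic cytochrome c, was among them. The annotation named 42 such probes, and 38 had values. The 4 without values were those of Cox4i2, Cox7b2, Cox8b and Cox8c, which encode isoforms best known from lung, testis or muscle.

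The male C57BL/6 mice were 6 to 8 weeks old. WNR are naïve wild-type mice, WTR are wild-type mice after trace fear conditioning (TFC), KNR are naïve homozygous Cav3.2 knockout mice (Cacna1h tm1Kcam) and KTR are knockout mice after TFC. In TFC a tone and a foot shock are separated by an empty interval, and the hippocampi were removed after a later test of contextual memory. Cacna1h, the knocked-out gene, encodes the pore of the T-type calcium channel Cav3.2. The germline knockout had been bred onto C57BL/6. Each group had 2 one-colour arrays made from the combined tissue of 3 mice. Neither labels nor methods make plain whether both arrays came from the same pool, so each p-value refers to variation among arrays and may reflect technical error alone.

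The respiratory chain of the inner mitochondrial membrane passes electrons from NADH and succinate to oxygen. Complex II takes them from succinate to ubiquinone, complex III from ubiquinol to cytochrome c, and complex IV from cytochrome c to oxygen. Complexes III and IV pump protons on the way, as complex I does, and complex V, the ATP synthase, lets the protons flow back and makes ATP. Neurons draw most of their ATP from this chain. All subunits of complex II are encoded in the nucleus, whereas complexes III, IV and V also hold subunits encoded by mitochondrial DNA, which are not among the members.

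Array medians lay between 484.7 and 485.4, because the deposited intensities were quantile normalized, and log2 values correlated at 0.9879 to 0.9911 between the arrays of a group and at 0.9455 to 0.988 across groups. KNR replicate 1 and KTR replicate 2 lay at the ends of the first principal component, with scores of -38.1 and 41.2, and that component held 44.2% of the variance. The Cacna1h probe read 2575 and 2385 in WNR, 2084 and 2340 in WTR, 1551 and 1489 in KNR and 1036 and 1440 in KTR, so both knockout groups lay below both wild-type groups. Where this probe lies relative to the deletion is unknown, so it is a limited check of the labels.

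All 34 members lay above an intensity of 100 on at least 2 arrays and were tested. Differences are given as log2 of intensity with values under 100 set to 100, from 1 limma fit of all 8 arrays, with p-values adjusted over the 16204 probes tested. The scanner limited 3 members: Cox8a read its ceiling on both WNR arrays, both KTR arrays and WTR replicate 2, Atp5b on both KNR arrays and Cox6a1 on both WTR arrays. Differences that involve those groups are bounds, at least 1.18-fold for Atp5b between KNR and WNR and at least 1.23-fold for Cox6a1 between WTR and WNR. Members with a mean intensity above 20000, 8 in number, had differences of -0.37 to 0.46 over the 4 comparisons of groups, the 20 members between 1000 and 20000 had differences of -1.24 to 0.95, and the 6 members below 1000 had differences of -0.41 to 0.87. Whether this level-dependent range is set by the array was not tested.

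**Figure D1:**
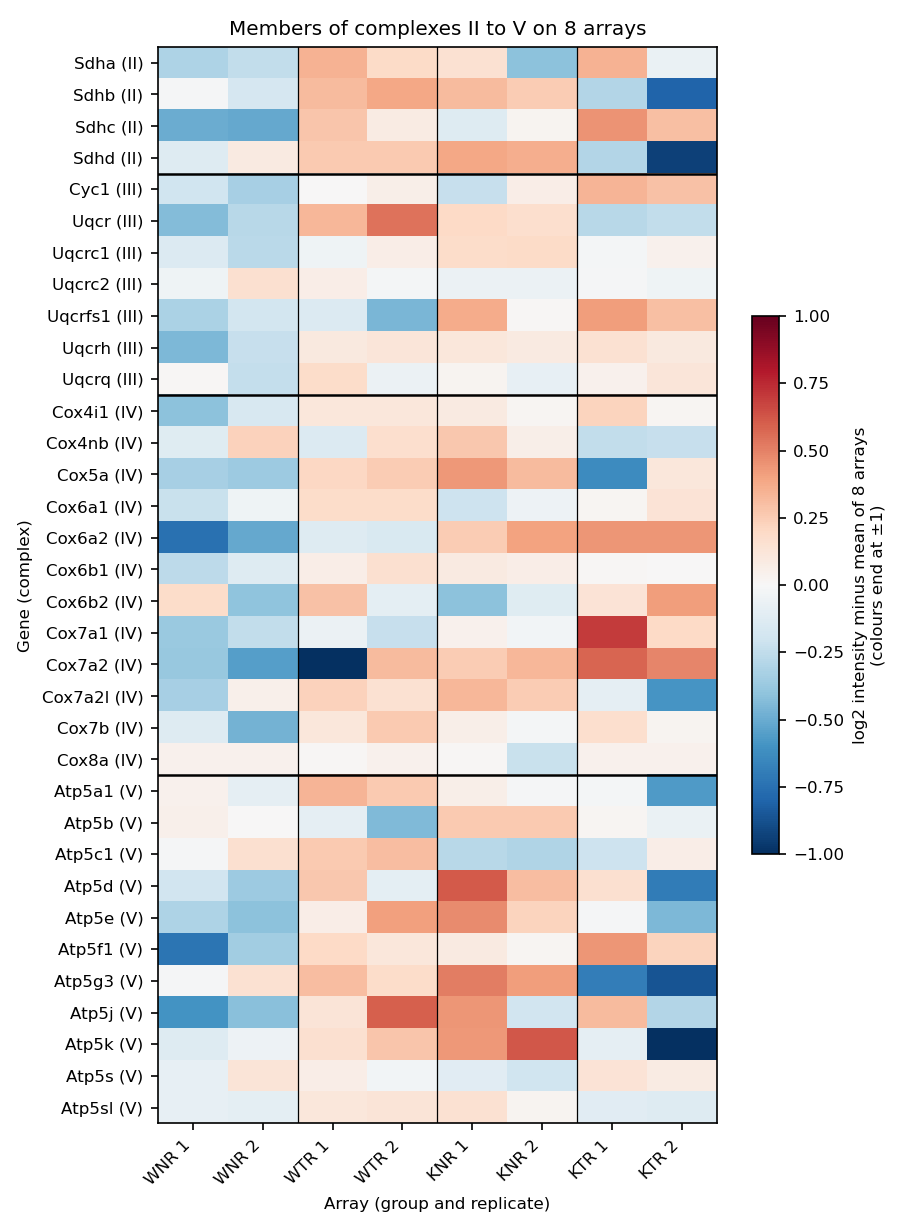
Each row is a member, ordered by complex, and each column an array; colour gives the log2 intensity minus the mean of the 8 arrays, ending at -1 and 1. Most rows are blue in WNR, and in KTR the rows of Sdhb, Sdhd, Atp5g3 and Atp5k are blue while those of Sdhc, Cyc1 and Cox6a2 are red.

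The median level of the 34 members was lowest on the naïve wild-type arrays, at -0.19 and -0.21 on the scale of log2 intensity minus the mean of the 8 arrays, and it lay between 0.02 and 0.15 on the others. Of the 34 members, 28 (82.4%) were positive in KNR vs WNR and 28 were positive in WTR vs WNR, against 50.3% and 49.6% of all probes tested. The 2 comparisons share the WNR arrays, so their agreement is not independent. In KNR vs WNR the groups did not overlap with KNR higher for 23 members and with KNR lower for 4, where 30.8% and 27.6% of all probes did so. In WTR vs WNR the counts were 25 and 1, where the shares of all probes were 26.7% and 29.8%. In KTR vs KNR 18 members were positive and in KTR vs WTR 14, against 48.7% and 52.3% of all probes. The groups did not overlap with KTR higher for 13 members and lower for 15 in KTR vs KNR, against 33.1% and 34.4% of all probes, and for 9 and 14 in KTR vs WTR, against 29.4% and 25.7%. The lowest of the 8 arrays was a WNR array for 14 members and a KTR array for 11. In pooled tissue, fewer cells of a type and less RNA per cell cannot be told apart.

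Few of these differences passed the threshold of an adjusted p of 0.05. In KNR vs WNR 2 members rose, Uqcr and Cox6a2, which is 5.88% of the members against 8.02% of all probes called (4.7% higher and 3.33% lower). In WTR vs WNR 3 members rose, Sdhc, Uqcr and Atp5f1, or 8.82% against 6.25% (3.25% higher and 2.99% lower). In KTR vs KNR 5 members fell, Sdhb, Sdhd, Uqcr, Atp5g3 and Atp5k, or 14.7% against 15.9% (6.6% higher and 9.29% lower). In KTR vs WTR 2 members fell, Uqcr and Atp5g3, or 5.88% against 2% (0.741% higher and 1.26% lower). No member passed in the opposite direction in any of these comparisons. The share of members called was below that of all probes in KNR vs WNR and in KTR vs KNR, and above it in WTR vs WNR and in KTR vs WTR, where it rests on 3 and 2 members. At an unadjusted p under 0.05, 14 members passed in each of the 4 comparisons, against 29%, 26.6%, 36.6% and 22.9% of all probes in the order given here.

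The training difference itself differed between the genotypes for 3 members, Sdhb, Uqcr and Atp5g3, all lower in the knockout, or 8.82% against 5.18% of all probes (1.83% higher and 3.35% lower). This interaction is the KTR minus KNR difference less the WTR minus WNR difference. It was negative for 24 of the 34 members and positive for the other 10, where 51.1% of all probes were positive, and 15 members had an unadjusted p under 0.05, where 28.8% of all probes did. Training differences were positive in wild type and negative in the knockout for 14 members, 7 of them in complex V, and 14 were positive in both. The knockout difference lay below -0.5 for 8 members, 4 of complex V, 2 of complex II and 2 of complex IV, and no wild-type difference did. The shares of all probes for these counts of signs and of falls were not taken. More of all probes were called in KTR vs KNR, 15.9%, than in WTR vs WNR, 6.25%.

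**Figure D2:**
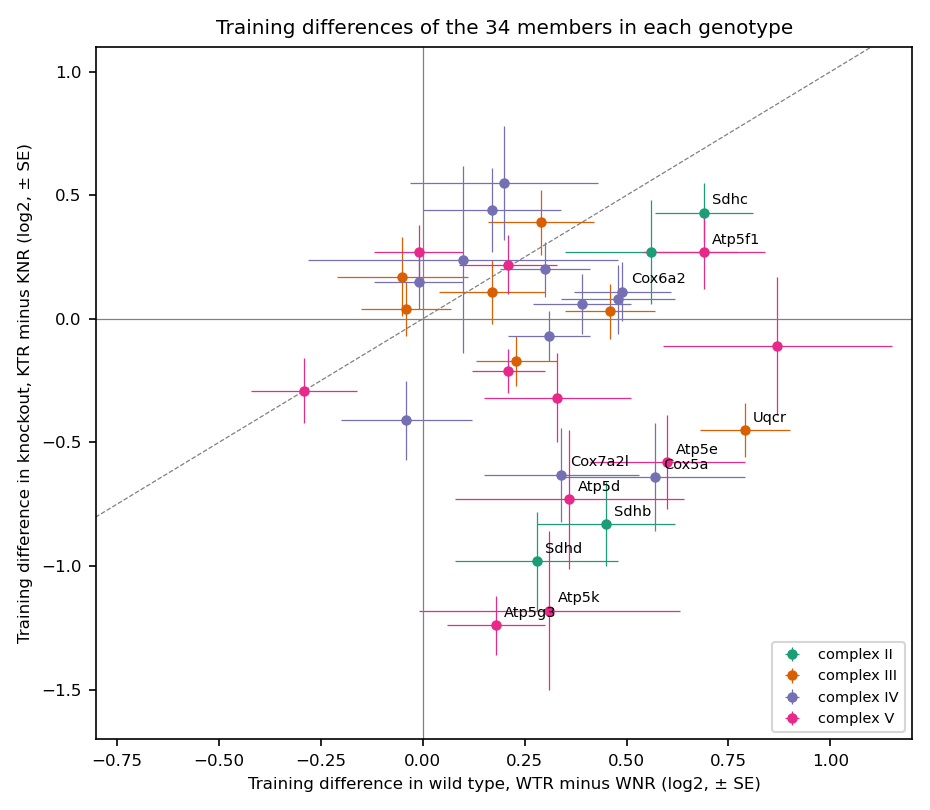
Each point is a member, with the wild-type training difference (WTR minus WNR) on the x axis and the knockout training difference (KTR minus KNR) on the y axis, both in log2 with bars of 1 SE, coloured by complex; the dashed line marks equal differences. The 8 members below -0.5 on the y axis all lie to the right of 0 on the x axis.

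The complexes were set against each other by the median of their members. In KNR vs WNR the medians were 0.38 for complex II, 0.39 for III, 0.32 for IV and 0.40 for V, while the median over all probes was 0. In WTR vs WNR they were 0.50, 0.23, 0.31 and 0.31. In KTR vs KNR complexes II and V had medians of -0.28 and -0.29, and complexes III and IV of 0.04 and 0.10. In KTR vs WTR the same split appeared, with -0.50 and -0.35 for II and V and 0.01 and -0.04 for III and IV. Both comparisons use the KTR arrays, so the second is no independent repeat. The interaction medians were -0.77 for II, -0.06 for III, -0.35 for IV and -0.64 for V. These medians are descriptions, and the difference between complexes was not tested.

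The split of II and V from III and IV was largest on KTR replicate 2. On the scale of log2 intensity minus the mean of the 8 arrays, the level of complex II was -0.44 on KTR replicate 2 and 0.03 on KTR replicate 1, and that of complex V was -0.29 and -0.01. Complex III stood at 0.10 and 0.04 on these arrays, and complex IV at 0.08 and 0.09. On KTR replicate 2 complex III therefore stood 0.54 above complex II and complex IV stood 0.51 above it, whereas on KTR replicate 1 these gaps were 0.01 and 0.06. Without KTR replicate 2 the KTR vs KNR median of complex II was -0.04 and that of complex V -0.20, and without KTR replicate 1 they were -0.51 and -0.41. The standard deviation of an array's median within groups was 0.17 for complex II, 0.13 for V, 0.03 for III and 0.04 for IV. In WNR, by contrast, all complexes were low on both arrays, at -0.22 and -0.21 for II, -0.20 and -0.24 for III, -0.29 and -0.20 for IV and -0.08 and -0.09 for V.

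**Figure D3:**
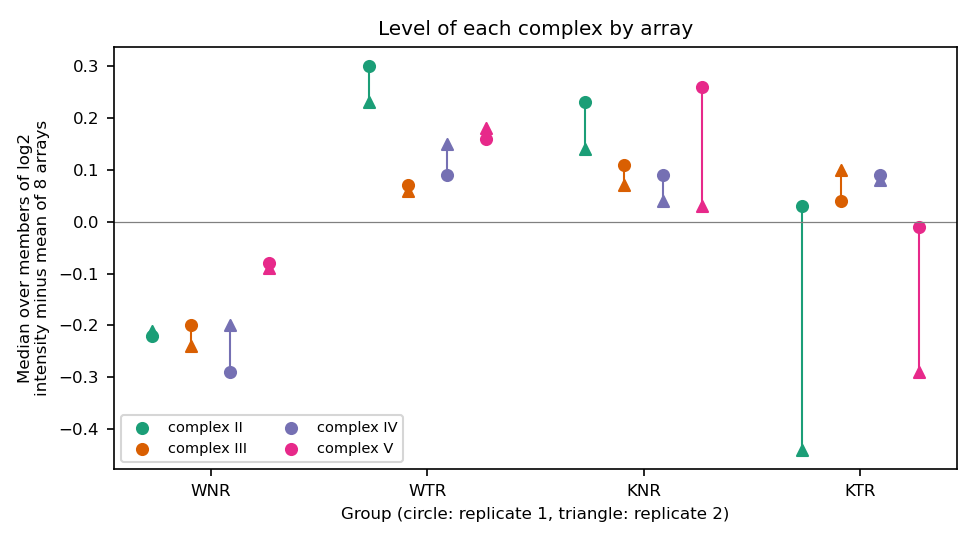
Each symbol is the median over the members of a complex, on 1 array, of log2 intensity minus the mean of the 8 arrays, by group; circles are replicate 1, triangles replicate 2 and lines join them. The 4 complexes lie below 0 in WNR, and in KTR the triangles of complexes II and V, at -0.44 and -0.29, lie far from their circles.

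Complex II holds the flavoprotein Sdha, which oxidizes succinate, the iron-sulfur protein Sdhb and the membrane anchors Sdhc and Sdhd. Sdhb read 5239.7 and 4707 in WNR, 6588 and 6939 in WTR, 6572 and 6264 in KNR and 4316 and 3027 in KTR. Both KTR arrays lay below all other arrays, and both WTR arrays lay above both WNR arrays. Sdhb fell in KTR vs KNR, with -0.83 (SE 0.17, 1.78-fold, adjusted p = 0.029), and its interaction was -1.27 (SE 0.24, adjusted p = 0.041). The KTR vs WTR difference of -0.90 (adjusted p = 0.052) did not pass. Sdhd read 1668 and 1942 in WNR, 2182 and 2193 in WTR, 2389 and 2339 in KNR and 1497 and 956 in KTR. KTR was again lowest on both arrays, and WTR and KNR lay above WNR without overlap. Sdhd fell in KTR vs KNR, with -0.98 (SE 0.20, 1.98-fold, adjusted p = 0.029), and its interaction of -1.26 (adjusted p = 0.053) did not pass.

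Sdhc, the other anchor, read 2454 and 2435 in WNR, 4227 and 3677 in WTR, 3182 and 3542 in KNR and 4743 and 4291 in KTR. WNR was lowest and KTR highest, without overlap between any of the groups that were compared. Sdhc rose in WTR vs WNR, with 0.69 (SE 0.12, 1.61-fold, adjusted p = 0.031), and its KTR vs KNR difference was 0.43 (adjusted p = 0.052), of the opposite sign to those of Sdhb and Sdhd. A second, dimmer Sdhc probe differed from it after training: it gave -0.25 in KTR vs KNR and -0.51 in KTR vs WTR, where the brighter probe gave 0.43 and 0.19. In WTR vs WNR the second probe gave 0.45 (adjusted p = 0.12), so the direction of Sdhc in the trained knockout depends on the probe. Sdha read 245 and 255 in WNR, 388 and 347 in WTR, 337 and 229 in KNR and 388 and 290.4 in KTR. The arrays of KNR lay on either side of those of WNR, and the KNR vs WNR difference was 0.15 (adjusted p = 0.67), which became -0.13 without KNR replicate 1.

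Complex III includes the core proteins Uqcrc1 and Uqcrc2, the Rieske iron-sulfur protein Uqcrfs1, cytochrome c1 (Cyc1), the hinge protein Uqcrh and the small subunits Uqcrq and Uqcr, the last now named Uqcr11. Uqcr passed the threshold in every comparison. It read 4577 and 5079.7 in WNR, 7767 and 8972 in WTR, 7089.6 and 6941 in KNR and 5064 and 5196 in KTR. All WTR and KNR arrays lay above all WNR and KTR arrays. Uqcr rose in WTR vs WNR, with 0.79 (SE 0.11, 1.73-fold, adjusted p = 0.028), and in KNR vs WNR, with 0.54 (SE 0.11, 1.45-fold, adjusted p = 0.039). It fell in KTR vs KNR, with -0.45 (SE 0.11, 1.37-fold, adjusted p = 0.041), and in KTR vs WTR, with -0.70 (SE 0.11, 1.63-fold, adjusted p = 0.04). Its interaction was -1.24 (SE 0.16, adjusted p = 0.032).

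No other member of complex III passed the threshold in any comparison. Uqcrc2 read 32095 and 36856 in WNR, 34487 and 32555 in WTR, 31566 and 31566 in KNR and 32690.3 and 32032 in KTR, a narrow range over all arrays, and the 2 KNR values are equal because equal ranks receive equal values in quantile normalization. Its KNR vs WNR difference was -0.12 (adjusted p = 0.48), the lowest of the complex. Cyc1 had its highest readings in KTR, 18837 and 18220.0, and a KTR vs KNR difference of 0.39 (adjusted p = 0.072). Uqcrfs1 was dim, at 328 to 603, and its KTR vs WTR difference was 0.66 (adjusted p = 0.08). Uqcrh differed by 0.44 (adjusted p = 0.052) in KNR vs WNR and by 0.46 (adjusted p = 0.053) in WTR vs WNR. Uqcrc1 differed by 0.39 (adjusted p = 0.059) in KNR vs WNR and by 0.23 (adjusted p = 0.2) in WTR vs WNR. The interactions of Uqcrh and Uqcrc1 were -0.43 and -0.40, the same sign as that of Uqcr, each with an adjusted p of 0.12. Those of Cyc1, Uqcrc2, Uqcrfs1 and Uqcrq were 0.10, 0.07, 0.22 and -0.06. Uqcrq lay near 100 on all arrays, at 76.8 to 133.5.

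Complex IV members comprise the widely expressed subunits Cox4i1, Cox5a, Cox6a1, Cox6b1, Cox7a2, Cox7b and Cox8a, the heart and muscle isoforms Cox6a2 and Cox7a1 and the testis isoform Cox6b2. Cox7a2l, which has been linked to supercomplexes of complexes III and IV, and Cox4nb are also among them. Cox4nb is today named Emc8, a subunit of a complex of the endoplasmic reticulum, and entered by its old symbol only. Cox6a2 read 606 and 716 in WNR, 931 and 918 in WTR, 1212 and 1340.2 in KNR and 1375 and 1376 in KTR. Its 4 groups did not overlap and ran from WNR through WTR and KNR to KTR. Cox6a2 rose in KNR vs WNR, with 0.95 (SE 0.12, 1.93-fold, adjusted p = 0.018), the largest such difference of the 34 members. Its differences in KTR vs WTR, 0.57 (adjusted p = 0.056), and in WTR vs WNR, 0.49 (adjusted p = 0.055), did not pass. Of 5 muscle markers only Acta1 was measured, at 121 to 226, and its readings were lowest in WNR and KTR. None of 3 testis markers had values.

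The training differences of the other complex IV members were mixed. Cox5a, a matrix-side subunit, had an interaction of -1.21 (adjusted p = 0.064), but its KTR arrays read 9109 and 15273, far apart. Cox7a2l had an interaction of -0.96 (adjusted p = 0.078), with readings of 2531 and 1781 in KTR against 3161 and 2984 in WTR. It lies on chromosome 17, as Cacna1h does, at a distance that was not examined. Cox7a2 had 1 array that stood apart, WTR replicate 1 at 1142, where WTR replicate 2 read 2952. The spread is pooled over all groups, so this gap enlarges the error of every Cox7a2 comparison and not only of those with WTR. The KTR vs WTR difference was 0.90 (SE 0.38, 1.86-fold, adjusted p = 0.22). The KNR vs WNR difference was 0.76 with the same SE of 0.38 (adjusted p = 0.23). It did not pass, although both KNR arrays, at 2820 and 2980, lay above both WNR arrays, at 1817 and 1614. Cox6b2 read 2317 and 1552 in WNR, 2498 and 1907 in WTR, 1539 and 1878 in KNR and 2249 and 2736 in KTR. The arrays of KNR and WNR overlapped, and the KNR vs WNR difference was -0.16 (adjusted p = 0.69), which became 0.13 without WNR replicate 1. Cox4i1, Cox6b1 and Cox7b had KTR vs KNR differences of -0.07 to 0.08, while Cox7a1 differed by 0.44 (adjusted p = 0.11) and Cox4nb by -0.41 (adjusted p = 0.12).

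Complex V members cover the catalytic head (Atp5a1 and Atp5b), the central stalk (Atp5c1, Atp5d and Atp5e), the membrane ring (Atp5g3), the peripheral stalk (Atp5f1, now Atp5pb, and Atp5j) and Atp5k, a membrane subunit of the dimer. Atp5s and Atp5sl also entered by symbol: the first is now named Dmac2l, and the second is Dmac2, an assembly factor of complex I, and their differences in the 4 comparisons lay between -0.24 and 0.27. Atp5g3 encodes the c subunit that turns as protons pass. It read 9757 and 10936 in WNR, 12216 and 11187 in WTR, 14013 and 13196 in KNR and 6106 and 5413 in KTR. Both KTR arrays lay below every other array. Atp5g3 fell in KTR vs KNR, with -1.24 (SE 0.12, 2.37-fold, adjusted p = 0.012), and in KTR vs WTR, with -1.02 (SE 0.12, 2.03-fold, adjusted p = 0.023), and its interaction was -1.42 (SE 0.16, adjusted p = 0.032).

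Atp5k read 1833 and 1939 in WNR, 2241 and 2442 in WTR, 2716 and 3082 in KNR and 1886 and 869 in KTR. The KTR arrays lay far apart, and replicate 1 of KTR lay between the 2 WNR arrays. Atp5k fell in KTR vs KNR, with -1.18 (SE 0.32, 2.26-fold, adjusted p = 0.049), and its interaction of -1.49 (adjusted p = 0.089) did not pass. Atp5f1 moved otherwise and read 2580.0 and 3359 in WNR, 4904 and 4614 in WTR, 4567 and 4339 in KNR and 5812 and 4984 in KTR. WNR lay below all other groups, and KTR was highest. Atp5f1 rose in WTR vs WNR, with 0.69 (SE 0.15, 1.62-fold, adjusted p = 0.045), and its KTR vs KNR difference was 0.27 (adjusted p = 0.23).

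In the stalk and head, Atp5d read 2908 and 2582 in WNR, 4002 and 3081 in WTR, 5050.2 and 4103 in KNR and 3695 and 2042 in KTR. KNR was highest on both arrays, and the 2 KTR arrays differed by more than the means of KTR and WNR. Its KNR vs WNR difference was 0.73 (adjusted p = 0.14), the highest of complex V. Atp5c1 read 39149 and 44071 in WNR, 47166 and 48648 in WTR, 32425 and 31875 in KNR and 34020.4 and 41283 in KTR. Both KNR arrays lay below all WNR arrays, with a difference of -0.37 (adjusted p = 0.11), the lowest of all members. A second Atp5c1 probe gave 0.04 in KNR vs WNR and 0.28 in KTR vs WTR, where the brighter probe gave -0.35 in the latter. Atp5e, with an interaction of -1.18 (adjusted p = 0.053), Atp5j, with -0.98 (adjusted p = 0.16), and Atp5a1, with -0.64 (adjusted p = 0.15), did not pass, although each was negative. Atp5b had an interaction of 0.00 (adjusted p = 0.99), with its KNR readings at the ceiling.

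**Figure D4:**
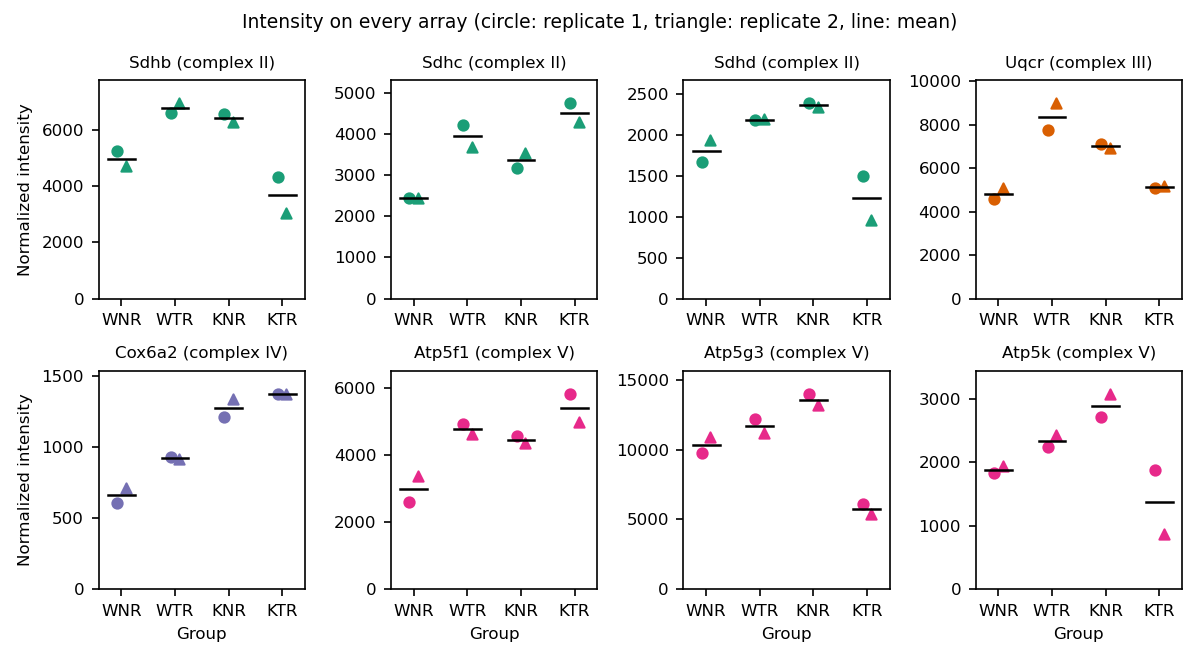
Each panel shows a member that passed the threshold in at least 1 comparison, with normalized intensity from 0 on the y axis and the 4 groups on the x axis; circles are replicate 1, triangles replicate 2 and lines the mean. Sdhb, Sdhd, Uqcr, Atp5g3 and Atp5k drop from KNR to KTR, whereas Sdhc, Cox6a2 and Atp5f1 do not.

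Among the members, differences over 0.5 between the 2 arrays of a group were most frequent in KTR. Over all probes the WNR pair differed most by a 2-fold count, with 196 probes over 2-fold apart. The KTR pair had 105 such probes, the KNR pair 98 and the WTR pair 28. The members of complex II differed between the KTR arrays by a median of 0.46 (replicate 1 minus replicate 2), those of complex V by 0.22, and those of complexes III and IV by 0.03 and 0, and 7 of the 34 members lay over 0.5 apart between the KTR arrays against 1, 1 and 2 in WNR, WTR and KNR. Each array was then left out in turn, which leaves its group with 1 array that is assumed to vary like the other groups, so a lost call in such a fit says little about the member. Without KTR replicate 2, 0 of 5 members passed in KTR vs KNR, and Sdhb, Sdhd and Atp5k had differences of -0.57, -0.66 and -0.62. Without KNR replicate 1, 0 passed as well. Without KTR replicate 1, 5 passed (Atp5d, Atp5g3, Atp5k, Sdhb and Sdhd), without a WNR array 3 passed (Atp5g3, Sdhb and Sdhd), and without a WTR array or KNR replicate 2 Atp5g3 alone passed. The Atp5g3 difference lay between -1.33 and -1.16 over all arrays left out in turn. SAM on the 4 arrays of a comparison, at q under 0.01 and over 2-fold, called Atp5g3 alone among the members, in KTR vs KNR and in KTR vs WTR, and pairwise limma fits called no member.

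For KNR vs WNR, 0 members passed when any WNR or KNR array was left out, 1 (Cox6a2) without a WTR array and 3 (Atp5k, Cox5a and Cox6a2) without a KTR array, and for WTR vs WNR 0 passed whichever of the 8 arrays was left out. For KTR vs WTR, 0 passed without a WTR, KNR or KTR array and 1 (Atp5g3) without a WNR array. For the interaction, 0 passed when any array other than KTR replicate 1 was left out, and without that array Atp5k alone passed. Leaving out an array also lowered the number of all probes called, to between 0 and 1446. The signs of the differences that had passed held in each of these fits.

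The promoters of the 5 members that fell in the trained knockout are shown because the calls in that comparison rest on them, and because nuclear genes of the chain are known to share binding motifs of NRF1, of ETS factors such as GABPA, of YY1 and of the estrogen-related receptors (ERR). Promoters of RefSeq (GRCm38.p6), 250 bases before to 50 after the start, were matched for 26 of the 34 genes, and some genes had several, which gave 30. Motifs were searched on both strands as GCGCA, any base and then GCGC for NRF1, CCGGAAG for ETS, AAGATGGCG for YY1 and AAGGTCA for ERR, and capitals mark each match. An NRF1 match can count on both strands, and the motifs hold no other motif of the set. The windows shown are Atp5g3 at chr2:73911277-73911576 (minus strand), Atp5k at chr5:108434350-108434649 (minus), Sdhb at chr4:140961021-140961320 (plus), Sdhd at chr9:50603800-50604099 (minus) and Uqcr, as Uqcr11, at chr10:80406772-80407071 (minus).
Atp5g3: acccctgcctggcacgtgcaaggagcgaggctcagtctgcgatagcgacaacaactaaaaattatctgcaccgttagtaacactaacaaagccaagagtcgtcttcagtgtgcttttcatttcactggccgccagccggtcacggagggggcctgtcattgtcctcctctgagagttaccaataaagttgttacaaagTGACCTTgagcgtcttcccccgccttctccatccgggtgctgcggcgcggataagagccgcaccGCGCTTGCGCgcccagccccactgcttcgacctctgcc
Atp5k: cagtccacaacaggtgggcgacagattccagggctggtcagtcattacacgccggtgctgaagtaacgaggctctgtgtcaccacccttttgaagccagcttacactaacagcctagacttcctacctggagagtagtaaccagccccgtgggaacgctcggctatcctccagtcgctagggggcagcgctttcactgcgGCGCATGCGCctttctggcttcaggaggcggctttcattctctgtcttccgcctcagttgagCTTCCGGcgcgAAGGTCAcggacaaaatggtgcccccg
Sdhb: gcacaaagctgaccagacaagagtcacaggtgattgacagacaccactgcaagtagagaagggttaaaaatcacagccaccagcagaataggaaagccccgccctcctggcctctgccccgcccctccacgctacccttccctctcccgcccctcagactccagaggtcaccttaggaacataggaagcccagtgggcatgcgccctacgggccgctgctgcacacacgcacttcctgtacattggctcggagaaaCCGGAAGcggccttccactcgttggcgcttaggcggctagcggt
Sdhd: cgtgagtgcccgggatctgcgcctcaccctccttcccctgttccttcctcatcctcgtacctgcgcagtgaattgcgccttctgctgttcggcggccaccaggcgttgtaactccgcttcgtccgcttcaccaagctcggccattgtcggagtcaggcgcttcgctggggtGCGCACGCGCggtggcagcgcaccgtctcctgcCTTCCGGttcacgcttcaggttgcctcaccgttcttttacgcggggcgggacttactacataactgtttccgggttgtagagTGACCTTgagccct
Uqcr11: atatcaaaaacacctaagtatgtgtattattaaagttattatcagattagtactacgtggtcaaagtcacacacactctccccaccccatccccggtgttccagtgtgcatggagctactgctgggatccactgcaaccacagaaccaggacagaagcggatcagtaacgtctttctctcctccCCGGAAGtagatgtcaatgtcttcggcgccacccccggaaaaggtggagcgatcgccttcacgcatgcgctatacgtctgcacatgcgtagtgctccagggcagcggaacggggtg

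Each of these windows held at least 1 match. Atp5k and Sdhd held matches for NRF1, ETS and ERR, Atp5g3 for NRF1 and ERR, and Sdhb and Uqcr11 for ETS. Among all 30 member promoters, NRF1 was found in 23.3% against 4.6% of 32851 promoters of the table, ETS in 33.3% against 8.86%, YY1 in 10% against 1.4% and ERR in 13.3% against 4.72%. Any of the 4 was found in 53.3% against 17.8%. The 3 YY1 promoters belong to only 2 genes, Atp5j and Atp5sl. The 2 windows of Atp5sl overlap and hold the same site. Of the 21 other members with a promoter, which did not pass the threshold in KTR vs KNR, 10 also held a match. Among them were Sdha, Uqcrc1 and Atp5c1 for NRF1, Cox6a1 for NRF1 and ETS, and Uqcrh, Cox8a and Cox6b1 for ETS. Some of the 21 were lower in KTR without passing. Atp5e, with ETS and ERR matches, differed by -0.58, and Atp5d, Cox5a and Cox7a2l, without a match, by -0.73, -0.64 and -0.63. No match or absence of one is a measurement of binding.

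The other genes of the chain were counted in the same way. Of all probes, 4.7% were called higher and 3.33% lower in KNR vs WNR, and 3.25% and 2.99% in WTR vs WNR. These shares were 6.6% and 9.29% in KTR vs KNR, 0.741% and 1.26% in KTR vs WTR, and 1.83% and 3.35% in the interaction. Complex I was taken as the 33 genes whose symbols begin with Nduf. Of these, 7 rose and 1 fell in KNR vs WNR, 11 rose in WTR vs WNR, 5 fell in KTR vs KNR and 2 fell in KTR vs WTR. The medians were 0.41, 0.44, -0.07 and -0.13. In the interaction this list had 8 lower genes and a median of -0.56. The list includes the assembly factors Ndufaf1 and Ndufaf2, and Ndufa4, now counted as a subunit of complex IV. Ndufa4 is among the genes called, with 0.59 in KNR vs WNR, 0.55 in WTR vs WNR and -0.82 in the interaction. Of the assembly factors of complexes III to V, 22 were tested, and 5 rose in WTR vs WNR. In KTR vs KNR Cox11 rose by 0.47 while Cox16 and Hccs fell by 0.56 and 0.89, and in KTR vs WTR Cox11 rose by 0.58 and Cox16 fell by 0.90. Cox16, Cox20, Coa6 and Uqcc2 had lower interactions, from -1.39 for Cox16 to -0.74 for Uqcc2, and Coa6 and Cox19 rose in KNR vs WNR by 0.49 and 0.53. Cox16 and Cox20 help to assemble complex IV, and Uqcc2 complex III. Of 3 measured genes listed as complex V associates, Atpif1, an inhibitor of ATP hydrolysis, rose in WTR vs WNR by 0.59. Atp5mpl rose in KNR vs WNR by 0.47 and had a lower interaction of -0.83. The remaining gene, Oscp1, is not a subunit of the ATP synthase and passed in no comparison.

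Genes that feed or regulate the chain were counted in the same way. Of 12 citric acid cycle genes 2 fell in KTR vs KNR, where 9.29% of all probes were called lower. They were Fh1 (fumarate hydratase), by 0.51, and Idh3g (a subunit of isocitrate dehydrogenase), by 0.37. None of the 12 passed in the other comparisons. The cycle's medians were 0.02 in KNR vs WNR and 0.01 in WTR vs WNR. None of 6 carriers and porins passed in any comparison. Of 9 regulators of nuclear respiratory genes, the coactivator Ppargc1a rose in KNR vs WNR by 0.46, where 4.7% of all probes were called higher, and none passed elsewhere. Whether these counts differ from the shares of all probes was not tested.

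Markers of other cells differed across the same groups, with members of several lists going opposite ways. Levels are medians over a list of log2 intensity minus the mean of the 8 arrays, with summed intensities beside them, and adjusted p-values come from the same limma fit. In KTR the 4 dentate gyrus markers of 5 stood at -0.32 and -0.27, against 0.29 and 0.28 in WNR and -0.01 to 0.08 in WTR and KNR. Their sums did not show this, at 24390 and 23703 in KTR against 23290 to 25422 elsewhere, and C1ql2 made up 85% of the sum. In KTR vs KNR Prox1 fell by 1.11 (adjusted p = 0.015) and Calb1 differed by -0.44 (adjusted p = 0.077). C1ql2 and Dsp differed by 0.04 and 0.1 there. The 4 CA1 markers of 4 stood at -0.18 and -0.55 in KTR, against 0.05 to 0.25 elsewhere (sums of 4788 and 4008 against 6121 to 7129), and Spink8 fell by 1.28 (adjusted p = 0.016). The 5 CA2 and CA3 markers of 5 stood at -0.06 and -0.06 in KTR, against 0.01 to 0.10 elsewhere (sums of 7746 and 7400 against 7862 to 8335). Of these, Rgs14 rose in KTR vs KNR by 0.52 (adjusted p = 0.037), and the other 4 did not pass. The 8 microglial markers of 8 stood at -0.21 and -0.32 in KTR, against -0.11 to 0.16 elsewhere (sums of 6225 and 6387 against 6483 to 7394), and in KTR vs KNR Aif1 fell by 0.89 (adjusted p = 0.04) and Gpr34 fell by 0.40 (adjusted p = 0.049). The 6 oligodendrocyte markers of 7 summed to 61874 and 55595 in KTR, against 69393 to 77107, and Cldn11 alone passed in KTR vs KNR, with -0.65 (adjusted p = 0.023). Of the 5 endothelial markers of 5, Flt1 fell in KTR vs KNR by 1.13 (adjusted p = 0.014) and Pecam1 rose by 0.70 (adjusted p = 0.045).

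In WNR the 5 meningeal fibroblast markers of 6 stood at -0.39 and -0.37, against -0.01 to 0.18 elsewhere (sums of 13118 and 12366 against 16453 to 18106). Mgp, Col1a2 and Igf2 rose in KNR vs WNR by 0.94, 0.80 and 0.47, whereas Ogn fell by 0.69 (adjusted p = 0.031). The 5 astrocyte markers of 6 stood at 0.17 and 0.18 in WNR, against -0.27 to 0.08 elsewhere, none passed in any comparison, and Gja1 made up 52.4% of their sum. The 6 choroid plexus markers of 6 stood at 0.31 and 0.46 in WTR, against -0.22 to 0.08, and Ttr, 90.3% of their sum, rose in WTR vs WNR by 0.89 (adjusted p = 0.029). In KTR vs KNR Folr1, Kcne2 and Kl rose by 0.54, 0.65 and 0.46, whereas Enpp2 fell by 0.7. The 6 neuronal markers of 8 stood between -0.07 and 0.08 on all arrays. Their sum says little, because Snap25, 52.2% of it, lay at the scanner ceiling on 7 of the 8 arrays. Map2 rose in KTR vs WTR by 1.1 (adjusted p = 0.011), and Syt1 fell in KNR vs WNR by 0.43 (adjusted p = 0.041). In KTR vs KNR both rose, Map2 by 0.5 (adjusted p = 0.026) and Syt1 by 0.36 (adjusted p = 0.042). The part of these cells in the members' differences was not tested.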

How the data were processed

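Total RNA of right hippocampi was amplified, labelled with Cy5 and hybridized to one-colour Phalanx mouse OneArray chips, 2 per group. The deposited values are linear intensities, which the authors quantile normalized. The methods set a floor of 100 first and state that technical replicates were averaged, but the deposited table holds values under 100. Background correction is not given in the sources used here. Of 29922 probes 16383 had values, 13072 of them with 1 gene symbol and 3311 with none. Probe positions and their assembly are not given in the sources used here. Current names came from RefSeq (GRCm38.p6).

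A floor of 100 was applied to the values before taking log2. Probes above 100 on at least 2 arrays were fitted with limma 3.58.1 in R 4.3.3 (lmFit, eBayes, 1 mean per group, 8 arrays, Benjamini-Hochberg over 16204 probes, threshold 0.05). Precision is limited by the small number of arrays. The spread behind each p-value is pooled over the arrays within all 4 groups and moderated over all probes. The scripts were tested on simulated data. Members, lists and tests were chosen with earlier results of these data known. Members were named when they passed in any comparison or had the highest or lowest KNR vs WNR difference of their complex. Further probes were named where they had the opposite sign and lay over 0.5 away. Other members given with values were chosen after those values were seen. Alternatives covered the fit, SAM (the test of the authors), the floor, the normalization, the filter, the arrays, the probe per gene and the membership. The figures were drawn with matplotlib and Python.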

Additional observations from a re-analysis of the deposited data

Results flagged for a closer look

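The training difference differed between the genotypes for 3 members, by the interaction term of the limma fit of all 8 arrays. Sdhb had an interaction of -1.27 (adjusted p = 0.041), with a training difference of -0.83 in the knockout and 0.45 in wild type. Uqcr had an interaction of -1.24 (adjusted p = 0.032), from -0.45 and 0.79. Atp5g3 had an interaction of -1.42 (adjusted p = 0.032), from -1.24 and 0.18. Over 18 alternatives each of the 3 kept its sign and passed in 8.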

How the results depend on the processing

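The 15 differences that had passed, of 8 members, kept their sign in every alternative in which they were fitted, and 139 of their values stayed past the threshold while 143 did not. Of the 6 KNR vs WNR differences named as the highest or lowest of a complex that had not passed, Sdha turned to -0.13 without KNR replicate 1 and also without it and KTR replicate 2 together, and ran from -0.13 to 0.43 when 1 array was left out. Cox6b2 ran from -0.45 to 0.13. Sdhc alone of the 6 passed in an alternative (a filter of 200 on all 8 arrays). Second probes of Sdhc and Atp5c1, which had the opposite sign in KTR vs WTR, are not among these alternatives other than in the mean of all probes. Counts of members past the threshold are given here with knockout against wild type first (naïve, then trained), then training (wild type, then knockout) and then the interaction. Pairwise limma fits on 4 arrays called 0, 0, 0 and 0, with smallest adjusted p of 0.084, 0.13, 0.099 and 0.058, and SAM called 0, 1, 0 and 1, with the interaction in neither. Differences between replicates 1 and 2 correlated at 0.27 between WNR and WTR and at 0.44 between KNR and KTR, but at -0.38 to -0.24 across genotypes. Replicate numbers therefore did not pair the samples over all 4 groups, and whether they do within a genotype was not tested. The replicate block, a shared replicate effect for all groups, left 0, 1, 0, 3 and 0 calls. Leaving out KNR replicate 1 and KTR replicate 2 together left 0 in all 5. A filter of 200 on all 8 arrays gave 8, 6, 6, 6 and 6, with fewer probes to adjust over. No filter gave 4 in KNR vs WNR, cyclic loess 5 in the interaction, subunits expressed generally 1 in KNR vs WNR, and members by current gene symbol, an alternative chosen after seeing the data, 4 in KNR vs WNR. Leaving out 1 array gave 0 to 3 in KNR vs WNR, 0 to 1 in KTR vs WTR, 0 in WTR vs WNR, 0 to 5 in KTR vs KNR and 0 to 1 in the interaction. For other alternatives the counts stayed within 1.5 times.

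Of the complex medians, 355 values moved by less than the spread between replicates and 70 by more, and the cause was not tested. Without KNR replicate 1 and KTR replicate 2 together, KNR vs WNR was 0.33 for III and 0.31 for all members, KTR vs WTR was -0.23 for II, -0.02 for III, -0.23 for V and -0.03 for all, KTR vs KNR was -0.06 for II and -0.14 for V, and the interaction was -0.60 for II, -0.26 for IV, -0.35 for V and -0.28 for all. Membership by current gene symbol added the assembly factors Sdhaf1, Sdhaf2, Sdhaf3 and Sdhaf4 to complex II, Uqcr10 to III and Atp5mpl to V. With these genes added, KNR vs WNR was 0.29 for III, KTR vs WTR was -0.13 for II and KTR vs KNR was -0.05 for all. The interaction was then -0.31 for II and -0.18 for III. The change for II therefore reflects added assembly factors and not other values of its subunits. With subunits expressed generally, KNR vs WNR was 0.60 for V and 0.39 for all, KTR vs WTR was -0.08 for IV and the interaction was -0.98 for V. Without members at the scanner ceiling, also chosen after seeing the data, KNR vs WNR was 0.39 for all and the interaction -0.81 for V. With the mean of all probes of a gene, KTR vs WTR was 0.01 for IV. A floor of 50 or no floor gave 0.29 for III in WTR vs WNR and -0.25 in the interaction. Leaving out 1 array, the medians in KNR vs WNR ran from 0.36 to 0.41 (II), 0.33 to 0.39 (III), 0.23 to 0.36 (IV), 0.31 to 0.48 (V), 0.27 to 0.38 (all). Leaving out 1 array, the medians in KTR vs WTR ran from -0.75 to -0.23 (II), -0.02 to 0.02 (III), -0.06 to 0 (IV), -0.65 to -0.23 (V), -0.1 to -0.03 (all). Leaving out 1 array, the medians in WTR vs WNR ran from 0.48 to 0.52 (II), 0.16 to 0.3 (III), 0.23 to 0.34 (IV), 0.23 to 0.31 (V), 0.28 to 0.31 (all). Leaving out 1 array, the medians in KTR vs KNR ran from -0.51 to -0.04 (II), 0.02 to 0.05 (III), 0.04 to 0.15 (IV), -0.41 to -0.2 (V), -0.01 to 0.06 (all). Leaving out 1 array, the medians in the interaction ran from -1.01 to -0.57 (II), -0.19 to 0.05 (III), -0.4 to -0.2 (IV), -0.92 to -0.41 (V), -0.43 to -0.26 (all). 

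With 2 arrays per group the spread is poorly known, members at the scanner ceiling give bounds only, and Uqcrq lay near the floor.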
